A study of Mus musculus with 43 samples.

Results

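The interferon-inducible GTPases are large families of GTP-binding proteins that act inside the cell against bacteria, parasites and viruses. The 10 members described here are 6 guanylate-binding proteins, Gbp2, Gbp3, Gbp4, Gbp6, Gbp7 and Gbp9, and 4 immunity-related GTPases, Iigp1, Irgm1, Irgm2 and Igtp. They were chosen by gene symbol from the 54532 genes of the count table. All 10 were among the 29120 genes that passed the filter on low values, 0.5 CPM (read counts scaled to a common library total) or more in 1 or more libraries.

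RNA was sequenced from endothelial cells (EC) sorted by flow cytometry as CD31+, CD45- and CD11b- cells from dissociated cortex or hippocampus of mice aged 2 months, in 43 libraries. The mice belonged to 7 inbred strains, and the labels name no transgene, mutation or treatment in any of them. The long-inbred strains were 129S1/SvImJ (9 libraries), A/J (5), C57BL/6J (6), DBA/2J (5) and NOD/ShiLtJ (6), and the recently wild-derived strains were CAST/EiJ (6) and WSB/EiJ (6). Of the libraries 16 were from female and 27 from male mice, 21 from cortex and 22 from hippocampus, and 29 carried the word high and 14 the word low in the title, a tag that the labels do not define. The labels do not tie libraries to single mice, so several libraries of a strain, such as those of cortex and hippocampus, may come from the same mouse. The tests treated the 43 libraries as independent. Their p-values therefore measure the spread between libraries, part of which may be technical, not between mice, and may be too small.

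Guanylate-binding proteins gather on vacuoles that hold pathogens and on the pathogens themselves, where they break membranes and help to start inflammasome signalling. Among the immunity-related GTPases, Irgm1, Irgm2 and Igtp (also known as Irgm3) are regulators that sit on the cell's own membranes and keep effectors such as Iigp1 (Irga6) inactive, while Iigp1 loads onto the vacuole of parasites such as Toxoplasma and disrupts it. Interferon gamma induces both families, and promoters of genes induced by interferons often hold gamma-activated sequences (GAS) or interferon-stimulated response elements (ISRE).

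By GENCODE M21 coordinates on GRCm38 (the mm10 assembly), all 10 members are protein-coding genes. Iigp1 and Irgm1 each lie apart from the other members. Gbp7 (ENSMUSG00000040253), Gbp3 (ENSMUSG00000028268) and Gbp2 (ENSMUSG00000028270) lie on the plus strand of chromosome 3, at chr3:142530342-142550149, chr3:142560026-142573209 and chr3:142620602-142638008. Gbp9 (ENSMUSG00000029298), Gbp4 (ENSMUSG00000079363) and Gbp6 (ENSMUSG00000104713) lie on the minus strand of chromosome 5, at chr5:105077630-105139539, chr5:105115767-105139586 and chr5:105270702-105293698. Irgm1 (ENSMUSG00000046879) is on the minus strand at chr11:48861968-48871683. Igtp (ENSMUSG00000078853) and Irgm2 (ENSMUSG00000069874) are plus-strand neighbours at chr11:58199556-58207591 and chr11:58199618-58222782, with 162 bases of exon in common.

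The stretches of promoter below show the interferon-response motifs found in 6 of the members. RefSeq promoters on GRCm38.p6, from 250 bases before to 50 bases after the start that RefSeq gives, were searched on both strands for the ISRE core GAAANNGAA and the GAS motif TTCNNNGAA, which may overlap each other. An entry was matched for 6 members (Gbp2, Gbp3, Gbp7, Igtp, Irgm1 and Irgm2), and Gbp4, Gbp6, Gbp9 and Iigp1 are named only. Capitals mark the matches, read on the strand of the gene, with 7 bases on either side. For Irgm2 that start lies inside the GENCODE gene, downstream of the start given above. Of these stretches, 19 of the 23 bases of Gbp2 and all 29 of Irgm1 lie in an annotated exon.
Gbp7, chr3:142530223-142530299, plus strand: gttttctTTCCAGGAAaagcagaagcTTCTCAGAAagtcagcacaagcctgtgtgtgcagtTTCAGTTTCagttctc
Gbp3, chr3:142559993-142560021, plus strand: acacagtTTCAGTTTCTATTTCccagatc
Gbp2, chr3:142620598-142620620, plus strand: ttttagtTTCACTTTCactgtct
Irgm1, chr11:48871429-48871457, minus strand: gtttcaaGAAATAGAAACCGAAactgatt
Igtp, chr11:58199504-58199537, plus strand: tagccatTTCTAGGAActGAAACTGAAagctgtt
Irgm2, chr11:58214895-58214928, plus strand: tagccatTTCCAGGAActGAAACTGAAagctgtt

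All 6 members with an entry held an ISRE core in 1 or more of their entries, 7 in all, against 8.56% of 32851 single promoters of the same length. Gbp7, Igtp and Irgm2 also held a GAS match, which 8.3% of the promoters did, and 1.07% of the promoters held both. The stretches of Igtp and Irgm2 had the same bases at 33 of 34 positions. A match is a description of the letters, not a binding site. Gbp2 and Gbp3, which differed among the strains, and Irgm1, Irgm2, Igtp and Gbp7, for which no difference passed the test, all carried the ISRE core.

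Total counts per library ranged from 1626534 to 49372356 with a median of 5790701, so that 3 counts corresponded to 0.0537 to 1.84 CPM. Female libraries held 2731954 to 49372356 counts and male libraries 1626534 to 10567966, and 3 rRNA-like genes took 1.59% to 12.1% of the counts in female and 12.97% to 29.3% in male libraries, without overlap. Depth also differed by strain, with 1626534 to 5331064 counts in WSB/EiJ and 27702669 to 47417529 in female 129S1/SvImJ libraries. The summed level of 20 EC markers was 17481 to 38176 CPM. Markers of immune cells, which can also express these GTPases, were low. The 10 microglia markers summed to 11.6 to 161 CPM and 13 leukocyte markers to 0 to 14.5 CPM, with Cd3g, Nkg7 and Ly6g at 0 in all 43 libraries and Ptprc at 0 in 27. Markers of neighbouring brain cells were higher, with 10 pericyte markers at 1953 to 9551 CPM and 10 astrocyte markers at 1099 to 19670 CPM. Pericyte markers also differed between strains, at 1953 to 2986 CPM in CAST/EiJ and 4793 to 9551 in WSB/EiJ without overlap. In bulk samples, fewer cells of a type and less RNA per cell cannot be told apart.

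Transcripts of all members were counted in EC of these untreated mice, at levels far apart. Per kilobase of exon and averaged over the 43 libraries, Gbp3 was highest at 71.5 CPM per kb, followed by Gbp2 at 36.1, Gbp9 at 23.2, Gbp7 at 18.7, Irgm2 at 13.8, Igtp at 10.9, Gbp4 at 7.86, Irgm1 at 6.57 and Iigp1 at 4.07 CPM per kb. Gbp6 was lowest at 0.254 CPM per kb. Gbp6 had no count in 26 of 43 libraries and 3 counts or fewer in 29, and 61.7% of the read-length windows of its transcripts also occur in another gene, mostly Gm43302, so its counts are uncertain. Gbp7 shares 11.3% of its exon bases with the same-strand Gm43802. Gbp2, Gbp3, Iigp1 and Irgm1 share no exon base on their strand with another gene, and Gbp2 overlaps Mir6381 on the other strand.

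Which members differed among the strains was asked first. Over the 7 strains, 5 of 10 members passed edgeR's quasi-likelihood F-test (two-sided, Benjamini-Hochberg adjustment over all genes tested), against 2.68% of all genes. They were the effector Iigp1 (edgeR adjusted p = 1.297e-08), Gbp4 (3.68e-06), Gbp9 (1.82e-04), Gbp2 (0.00189) and Gbp3 (0.00663). The strains that stood apart were not the same for each of them, as described below. The members that did not pass were Gbp7 (adjusted p = 0.271), Irgm2 (0.339), Igtp (0.461), Irgm1 (0.486) and Gbp6 (0.820), and 8 of 10 members had an unadjusted p below 0.05. Of the 210 contrasts between 2 strains over the members, 23 passed, against 0.45% of all contrasts of a gene between 2 strains. Of the 70 contrasts of a strain with the mean of the other strains 8 passed, against 0.912% over all genes.

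**Figure D1:**
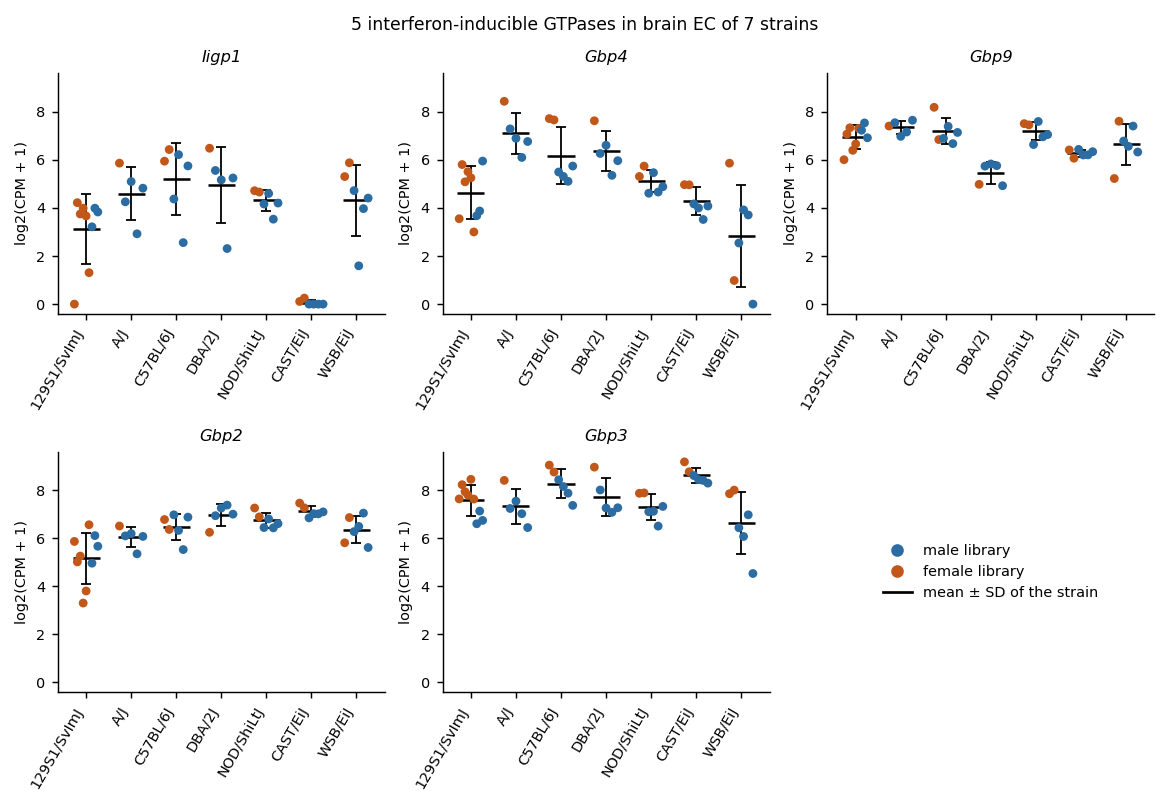
Level of the 5 members that passed the test over strains, as log2(CPM + 1) on the vertical axis for each of the 43 libraries (points, female and male in different colours) by strain on the horizontal axis, with the strain's mean and SD in black. Iigp1 lies at or near 0 in all 6 CAST/EiJ libraries, Gbp9 is low in DBA/2J, Gbp2 is low in 129S1/SvImJ, Gbp4 is high in A/J and low in WSB/EiJ, and Gbp3 is high in CAST/EiJ.

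Iigp1 (ENSMUSG00000054072, plus strand, chr18:60376027-60392634), which disrupts pathogen vacuoles, was almost undetected in CAST/EiJ. The 6 CAST/EiJ libraries held 6 counts of Iigp1 in all: 4 libraries held none, and the female cortex and hippocampus libraries reached 0.0793 and 0.190 CPM. Pooled, this is 0.0875 CPM with an exact Poisson 95% interval of 0.0321 to 0.190, which covers counting error only. The other strains averaged 10.5 ± 6.10 CPM (129S1/SvImJ, SD, n = 9), 19.6 ± 5.67 (NOD/ShiLtJ, n = 6), 26.4 ± 19.5 (WSB/EiJ, n = 6), 28.4 ± 18.9 (A/J, n = 5), 42.0 ± 30.4 (DBA/2J, n = 5) and 49.3 ± 31.1 (C57BL/6J, n = 6). Every library of those strains was above every CAST/EiJ library except 1 female 129S1/SvImJ cortex library titled low, which had no Iigp1 count among 27702669. Reads of all strains were aligned to 1 assembly, and the part of sequence differences from it in the low CAST/EiJ counts was not tested.

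CAST/EiJ passed against each of the 6 other strains for Iigp1, with edgeR adjusted p from 5.54e-10 against C57BL/6J to 1.96e-07 against 129S1/SvImJ, and no other pair of strains did. The fitted differences depend on the prior count because the CAST/EiJ libraries are at or near 0. C57BL/6J (log2 difference 2.45, SE 0.44, edgeR adjusted p = 6.10e-04) and DBA/2J (2.18, SE 0.48, 0.0147) also passed against the mean of the other strains, but that mean includes CAST/EiJ. Without the CAST/EiJ libraries they were 1.10 (SE 0.48, adjusted p = 0.358) and 0.82 (SE 0.53, adjusted p near 1) above the mean of the other 5 strains. Without CAST/EiJ, Iigp1 did not pass over the remaining strains (adjusted p = 0.314).

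Gbp4, one of the chromosome 5 guanylate-binding proteins, had strain means that differed more than those of any other member but Iigp1 and the sparsely counted Gbp6. The 5 A/J libraries had 67.5, 108, 118, 155 and 345 CPM, and the 5 DBA/2J libraries 39.9, 61.4, 75.9, 96.3 and 196 CPM. C57BL/6J ran from 33.4 to 209 CPM (median 48.3), NOD/ShiLtJ from 23.4 to 52.4 (median 33.5), 129S1/SvImJ from 7.001 to 60.7 (median 32.9), CAST/EiJ from 10.5 to 30.3 (median 16.4) and WSB/EiJ from 0 to 57.1 (median 8.44). All A/J, C57BL/6J and DBA/2J libraries lay above all CAST/EiJ libraries, whereas the WSB/EiJ range overlapped every other strain but A/J. The top of the WSB/EiJ range was 1 library at 57.1 CPM. The next was at 14.1 CPM, below all C57BL/6J, DBA/2J and NOD/ShiLtJ libraries. The WSB/EiJ library at 0 had the lowest total of all, 1626534 counts.

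Against the mean of the other strains, Gbp4 was 2.08 higher on the log2 scale in A/J (SE 0.37, edgeR adjusted p = 6.36e-04) and 1.92 lower in WSB/EiJ (-1.92, SE 0.49, adjusted p = 0.0166). Between pairs of strains 7 of 21 contrasts passed, all of which set A/J, C57BL/6J or DBA/2J above WSB/EiJ or CAST/EiJ, or A/J above 129S1/SvImJ. The largest was A/J minus WSB/EiJ at 3.43 (SE 0.61, adjusted p = 4.45e-04). Neighbours in the order of the means, such as C57BL/6J (96.4 ± 84.4 CPM) and DBA/2J (93.9 ± 60.7 CPM), or CAST/EiJ (19.8 ± 8.37) and WSB/EiJ (14.8 ± 21.5), did not pass.

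Gbp9, which shares 60 bases of exon with Gbp4 and Gbp8, was low in DBA/2J. The 5 DBA/2J libraries had 29.3, 30.6, 52.3, 53.1 and 55.8 CPM, and the 6 CAST/EiJ libraries 66.0 to 85.3 CPM, above all of them. The lowest library of A/J had 124.8 CPM, of C57BL/6J 101, of NOD/ShiLtJ 98.3 and of 129S1/SvImJ 63.2, and only 1 WSB/EiJ library, at 36.3 CPM, fell within the DBA/2J range. DBA/2J was 1.53 below the mean of the other strains (-1.53, SE 0.28, edgeR adjusted p = 9.21e-04) and passed against 129S1/SvImJ, A/J, C57BL/6J, NOD/ShiLtJ and WSB/EiJ, with log2 differences from 1.36 to 1.89 in size. Without the DBA/2J libraries Gbp9 did not pass over the remaining strains (adjusted p = 0.135). The 5 contrasts were the only ones of 21 that passed for Gbp9, so CAST/EiJ (76.8 ± 7.56 CPM, n = 6) and DBA/2J (44.2 ± 13.1, n = 5) did not pass although their libraries did not overlap.

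Gbp2, the guanylate-binding protein at the distal end of the chromosome 3 group, was lowest in 129S1/SvImJ. There it ran from 8.85 to 93.1 CPM (median 37.1, n = 9), against 114 to 175 CPM in CAST/EiJ, 85.0 to 151 in NOD/ShiLtJ and 74.6, 121, 127, 151 and 165 in DBA/2J. The CAST/EiJ libraries were above all 129S1/SvImJ libraries, while the other ranges overlapped. 129S1/SvImJ was 1.22 below the mean of the other strains (-1.22, SE 0.24, edgeR adjusted p = 0.00156), and it passed against CAST/EiJ (-1.69, SE 0.31), DBA/2J (-1.57, SE 0.32) and NOD/ShiLtJ (-1.32, SE 0.31), the 3 strains with the highest means. Without the 129S1/SvImJ libraries Gbp2 did not pass over the remaining strains (adjusted p = 0.210).

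Gbp3, the most abundant member, was highest in CAST/EiJ at 398 ± 96.9 CPM (SD, n = 6) and lowest in WSB/EiJ at 130 ± 92.8 (n = 6). The CAST/EiJ libraries ran from 311 to 575 CPM and the WSB/EiJ libraries from 22.1 to 254, without overlap, and C57BL/6J ran from 163 to 524. CAST/EiJ was 1.004 above the mean of the other strains (SE 0.24, edgeR adjusted p = 0.0108), and both CAST/EiJ (1.61, SE 0.35, adjusted p = 0.00455) and C57BL/6J (1.33, SE 0.35, adjusted p = 0.0437) passed against WSB/EiJ. The 2 wild-derived strains thus stood at opposite ends for Gbp3, as they did for the summed pericyte markers, whose part in the result was not tested. Without the CAST/EiJ libraries Gbp3 did not pass over the remaining strains (adjusted p = 0.278), and among libraries titled high only its adjusted p was 0.262.

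**Figure D2:**
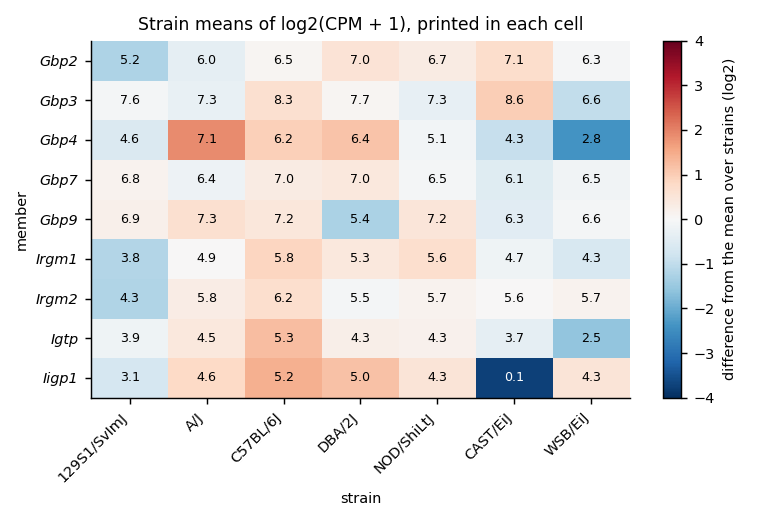
Strain means of log2(CPM + 1) for the 9 members other than Gbp6, printed in each cell (rows are members, columns strains), with the colour giving the difference from the member's mean over the 7 strains. No strain is high or low for all members: CAST/EiJ has the highest mean for Gbp2 and Gbp3 and the lowest for Iigp1, and C57BL/6J has the highest mean for Irgm1, Irgm2, Igtp and Iigp1.

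The regulators Irgm1, Irgm2 and Igtp varied by library within each strain. Irgm1 averaged 21.5 ± 20.9 CPM in 129S1/SvImJ (n = 9) and 60.1 ± 25.7 in C57BL/6J (n = 6), the lowest of its means being that of 129S1/SvImJ and the highest that of C57BL/6J. Irgm2 averaged 27.5 ± 18.5 CPM in 129S1/SvImJ and 77.4 ± 26.1 in C57BL/6J, the ends of its range as well. Igtp averaged 9.29 ± 11.3 CPM in WSB/EiJ (n = 6) and 43.4 ± 18.2 in C57BL/6J. None of the 21 contrasts between 2 strains passed for any of these genes, and their libraries overlapped between strains. Gbp7 averaged 70.1 ± 15.7 CPM in CAST/EiJ and 139.5 ± 61.1 in DBA/2J (n = 5), its lowest and highest means, with no pair that passed.

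Sex was not balanced among the strains, since 6 of 9 libraries of 129S1/SvImJ and 1 of 5 of A/J were from female mice. In the 27 male libraries alone, the same 5 members passed over strains, against 1.72% of the genes tested there, with edgeR adjusted p of 6.66e-07 for Gbp4, 1.81e-06 for Gbp3, 5.24e-06 for Iigp1, 5.46e-04 for Gbp9 and 0.0464 for Gbp2. In the 16 female libraries alone, of which A/J and DBA/2J had 1 each that was taken to vary like the other strains, 0 of 10 members passed in edgeR, against 0.906% of the genes tested there. Of the members 4 had an unadjusted p below 0.05, the lowest adjusted p was that of Iigp1 (0.0952), and DESeq2 called 4 members (Gbp3, Gbp4, Gbp7 and Iigp1) among 1797 of 21307 genes. With only the 5 strains that had 2 or more female libraries, edgeR again called 0 members (7 at an unadjusted p below 0.05), against 1.41% of the genes. DESeq2 called the same 4 there, among 2046 of 20723 genes. In cortex alone, with 21 libraries, 1 member (Iigp1) passed, against 0.771% of the genes tested there, and in hippocampus alone, with 22, Iigp1, Gbp4 and Gbp9 passed, against 0.722%.

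The rest of both families showed further differences among strains. Of the 7 other guanylate-binding protein genes listed, 5 passed the filter and 3 passed the test over strains. Of 17 other immunity-related GTPase genes 12 passed the filter and 2 the test. Of all genes 2.68% passed it. Gbp2b (also called Gbp1), which lies between Gbp3 and Gbp2 at chr3:142594847-142619179, averaged 49.3 ± 23.9 CPM in 129S1/SvImJ (n = 9) and 75.2 ± 37.1 in A/J (n = 5) but at most 1.96 in any other strain. Its 14 libraries from 129S1/SvImJ and A/J, at 15.2 CPM and above, did not overlap with the other 29, at 6.05 CPM and below (edgeR adjusted p over strains = 5.18e-13). 129S1/SvImJ and A/J were also the strains with the lowest means of Gbp2, at 43.1 and 66.9 CPM, a coincidence noticed in the values and not tested.

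Gbp8, which shares 61 bases of exon with Gbp4 and Gbp9 on chromosome 5, averaged 20.2 ± 14.3 CPM in WSB/EiJ (n = 6), the strain with the lowest Gbp4, and at most 1.31 in any other strain (adjusted p = 1.002e-05). Gbp5, a regulator of inflammasome assembly on chromosome 3, had its highest mean in CAST/EiJ (192 ± 50.4 CPM, n = 6) and its lowest in 129S1/SvImJ (50.9 ± 19.97, n = 9), as did Gbp2 (adjusted p = 6.17e-05). Among immunity-related GTPases, 9930111J21Rik2 and 9930111J21Rik1 on chromosome 11 averaged 1.43 ± 1.43 and 0.0898 ± 0.156 CPM in CAST/EiJ, their lowest means, against 9.74 to 65.9 and 11.6 to 27.8 CPM in the other strains. Of their read-length windows 46.1% and 67% occur in another gene, so their split is uncertain. Gbp10 and Gbp11 (adjusted p = 0.204 and 0.738) and Tgtp2, Gm12185, Tgtp1, Ifi47, Gm4951, Gm12250, F830016B08Rik, Gm5431, Gm12187 and Irgc1 (0.0748 to 0.820) did not pass.

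Genes upstream of the GTPases were compared over strains by the same test, which called 2.68% of all genes. The 21 interferon genes listed had 270 counts in all 43 libraries together, 15 of them with none, and 0 of the 6 that passed the filter was called (2 at an unadjusted p below 0.05). Of 6 interferon receptor chains 1 was called, Ifnlr1, the interferon lambda receptor, with 11.9 ± 2.57 CPM in CAST/EiJ (n = 6) and at most 0.0661 in any other strain (adjusted p = 6.05e-05). Of 12 JAK, STAT and IRF genes 2 were called: Irf7, a transcription factor of type I interferon responses, averaged 6.12 ± 6.23 CPM in CAST/EiJ against 23.9 to 61.4 in the other strains (adjusted p = 1.58e-04), and the kinase Jak1 had its highest means in CAST/EiJ (204 ± 25.96) and WSB/EiJ (190 ± 73.1), against 102 to 159 (adjusted p = 0.0101). Stat2 had an adjusted p of 0.0789. Of 5 brakes on interferon signalling none was called by edgeR, and none had an unadjusted p below 0.05.

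Of 30 other interferon-stimulated genes 9 were called over strains, against 2.68% of all genes. Ifit3, Oasl2 and Xaf1, antiviral or apoptosis-related genes with the smallest p-values, had edgeR adjusted p of 4.43e-07, 4.43e-07 and 1.20e-06. CAST/EiJ had the lowest mean of Ifit3 (2.92 ± 2.33 CPM, against 13.2 to 64.8) and of Oasl2 (9.43 ± 3.44, against 27.5 to 98.4), whereas Xaf1 was highest in DBA/2J (132 ± 28.4) and lowest in NOD/ShiLtJ (15.5 ± 6.24). CAST/EiJ therefore combined the lowest Iigp1, Ifit3, Oasl2 and Irf7 means with the highest Gbp2, Gbp3 and Gbp5 means.

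Comparing CAST/EiJ and WSB/EiJ, the wild-derived strains, with the long-inbred ones called 1 of 10 members, against 0.749% of all genes. Gbp4 ran from 0 to 57.1 CPM (median 14.5, n = 12) in wild-derived and from 7.001 to 345 (median 44.4, n = 31) in long-inbred libraries. The ranges overlapped, and Gbp4 was lower by 2.11 on the log2 scale (-2.11, SE 0.43, edgeR adjusted p = 0.00222). The median over the 10 members was -0.59 and over all genes tested -0.38. With counts summed per strain, 2 strains against 5, the difference was -2.60 and did not pass (adjusted p = 0.532). That fit called 7 of 22110 genes. Iigp1 did not pass for the pair of wild-derived strains (-1.09, SE 0.61, adjusted p = 0.754), of which CAST/EiJ had almost none and WSB/EiJ 26.4 CPM. Without the WSB/EiJ libraries it did (-8.40, adjusted p = 1.92e-08).

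Gbp3 was higher in female than in male mice. Female libraries had 196 to 575 CPM (median 276, n = 16) and male libraries 22.1 to 387 (median 149, n = 27). The difference was 0.88 on the log2 scale (SE 0.19, edgeR adjusted p = 0.00192), and Gbp3 was the only 1 of 10 members called, against 2.85% of all genes. The median over the members was 0.46 and over all genes -0.12. In 7 of 7 strains every female library was above every male library of the strain, which held for 0.0275% of all genes tested and which was looked for after seeing the values. Among libraries titled high, Gbp3 was higher in female mice in 12 of 12 combinations of strain and region, by a median of 1.34 on the log2(CPM + 1) scale.

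Gbp4 was higher in female mice in 10 of the 12 combinations (median 1.32) but did not pass across all libraries (0.94, SE 0.37, adjusted p = 0.209). Iigp1 was also higher in 10 of 12 (median 0.57) with a difference of 0.67 (SE 0.51, adjusted p = 0.497). The regulators Irgm1 and Irgm2 differed by 0.03 (SE 0.33) and -0.05 (SE 0.26), and each was higher in 6 of 12 combinations. Of the other genes of the pathway and families, named here because they were called, the interferon gamma receptor chain Ifngr1 was higher in female mice (0.80, adjusted p = 0.0496). There 9930111J21Rik1 was also higher (1.79, adjusted p = 0.0292) and the kinase Jak2 was lower (-0.52, adjusted p = 0.0440). These were 1 of 6 receptor chains, 1 of 12 other immunity-related GTPase genes and 1 of 12 JAK, STAT and IRF genes. Of all genes 2.85% were called. The remaining lists had no called gene, with 0 of 30 other interferon-stimulated genes, so no result for the pathway is read from these calls. The rRNA-like share and the depth differed between the sexes as given above, so that sex and these properties cannot be told apart. With the rRNA-like share as covariate the Gbp3 difference was 1.18 and its adjusted p 0.182, and in cortex alone it was 0.64 (adjusted p = 0.414). These fits called 56 of 26057 and 240 of 24136 genes. Sex was also not balanced over the title tag, with 15 female libraries titled high and 1 low, against 14 and 13 male libraries. In libraries titled high only, Gbp3 was again the 1 member called, in a fit that called 448 of 25862 genes. The summed EC markers had a median of 28693 CPM in female and 21275 in male libraries. Astrocyte markers had 2532 and 3980, and pericyte markers 3721 and 5103. In male libraries titled high these medians were 27169, 3229 and 3677 CPM, and in those titled low 20181, 5188 and 6590. The medians by sex therefore also depend on the tag. The part of these markers in the result was not tested.

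**Figure D3:**
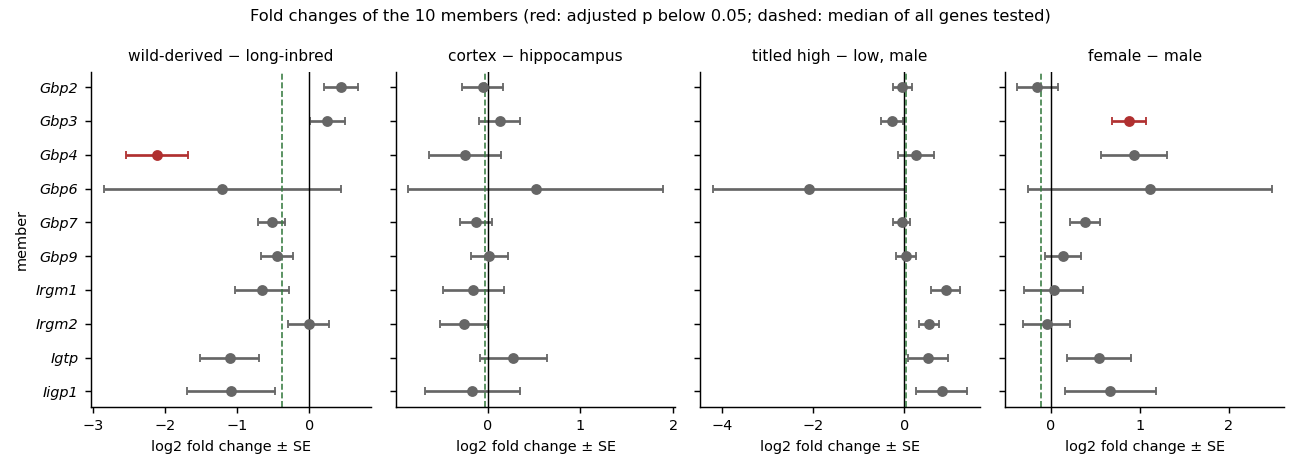
Log2 fold change ± SE of the 10 members (rows) in 4 comparisons (panels), from edgeR's quasi-likelihood fits, with members of adjusted p below 0.05 in red and the median of all genes tested as a dashed line. Gbp4 in wild-derived against long-inbred strains and Gbp3 in female against male mice are the only members in red, and cortex against hippocampus shows none.

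Within male mice, libraries titled high and low were compared because the tag is part of the titles. 0 of 10 members was called by edgeR (2 at an unadjusted p below 0.05) and 0 by DESeq2, against 1.06% of 27529 genes tested. Irgm1 had the smallest p-value: libraries titled high ran from 13.2 to 108 CPM (median 40.3, n = 14) and those titled low from 3.72 to 58.4 (median 22.6, n = 13), a difference of 0.92 (SE 0.32, unadjusted p = 0.00513 and adjusted p = 0.209 in edgeR). Irgm1 was higher in the library titled high in 11 of 13 combinations of strain and region, by a median of 1.298 on the log2(CPM + 1) scale. The difference was 0.54 for Irgm2 (SE 0.22, adjusted p = 0.417), 0.83 for Iigp1 (SE 0.56) and 0.52 for Igtp (SE 0.44). All 4 immunity-related GTPases had positive values, with a median of 0.68. The 6 guanylate-binding proteins had a median of -0.05 and all genes 0.04. Positive values were not particular to this family. They were seen in 6 of 11 other immunity-related GTPase genes (median 0.51) and 1 of 5 other guanylate-binding protein genes (-0.12). They were also seen in 21 of 30 other interferon-stimulated genes (0.44) and 5 of 6 interferon receptor chains (0.42). Summed EC markers moved with the tag, with a median of 27169 CPM in libraries titled high and 20181 in those titled low, and so did pericyte markers (3677 and 6590 CPM), astrocyte markers (3229 and 5188), neuronal markers (124.9 and 288), oligodendrocyte markers (26.7 and 116) and leukocyte markers (0 and 4.45). Their part in these values was not tested.

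**Figure D4:**
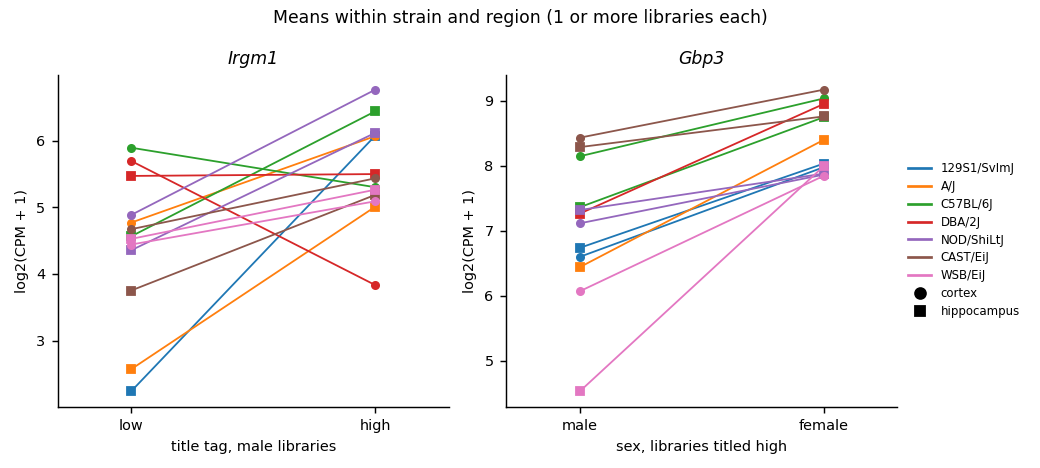
Levels within strain and region as log2(CPM + 1): Irgm1 in male libraries titled low and high (left) and Gbp3 in male and female libraries titled high (right). Lines join the means of 1 strain (colour) in 1 region (circle for cortex, square for hippocampus), and Irgm1 goes up in 11 of 13 lines and Gbp3 in 12 of 12.

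Between cortex and hippocampus 0 of 10 members was called by edgeR, against 0.0755% of all genes. None had an unadjusted p below 0.05, and DESeq2 called 0 as well. Differences ran from -0.26 (Irgm2, SE 0.25) to 0.52 (Gbp6, SE 1.37), with a median of -0.09 against -0.03 over all genes. Gbp3 had a median of 229 CPM in cortex (66.1 to 575, n = 21) and 180 in hippocampus (22.1 to 494, n = 22). Tests of whether the region or the sex effect differed between wild-derived and long-inbred strains, and the tag effect between regions, called no member and 0%, 0.0206% and 0% of all genes, with none of the members at an unadjusted p below 0.05 in any of these tests.

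Members did not move as 1 group from library to library. Over the 45 pairs of members, Pearson's r of log2(CPM + 1) across the 43 libraries had a median of 0.20 and ranged from -0.12 to 0.71, and after subtracting strain means it had a median of 0.15 and ranged from -0.30 to 0.61. The highest values in both cases were those of Gbp4 with Igtp. The genes outside the members whose pattern was most like the mean of the members were B2m (r = 0.79), Tgtp2 (0.79), Slfn3 (0.76), Lgals9 (0.69) and H2-K1 (0.68), and after subtracting strain means H2-K1 (0.76), Kank3 (0.73), Kdr (0.72), Taf7 (0.71) and Exosc10 (0.71). These correlations are descriptions across 43 libraries that share strain, sex, depth and EC marker level. B2m and H2-K1 encode the chains of the class I major histocompatibility complex, and Kdr encodes the VEGF receptor of EC.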

How the data were processed

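EC were sorted from mouse brain by strain, region, sex and title tag, and stranded libraries were made with a low-input kit that removes ribosomal RNA. The deposited values are raw read counts per gene. The submitters' processing notes name HISAT2 2.1.0, SAMtools 1.9, featureCounts of Subread 1.4.4 and the mm10 assembly. The authors aligned the reads of all strains to 1 assembly, so sequence differences from it can lower a strain's counts, and their part was not tested. The strand setting of the counting is not given in the sources used here.

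CPM were computed from the column totals with TMM factors, and log2 values with a pseudocount of 1. Genes that reached 0.5 CPM in 1 or more of the 43 libraries were tested with edgeR 4.0.16 in R 4.3.3 (quasi-likelihood F-test, TMM, trended dispersion, bias-adjusted deviances, two-sided, no covariates), adjusted by Benjamini-Hochberg over all genes tested, with a threshold of 0.05. SEs come from the same fits. The tests were tried on simulated data. DESeq2 1.42.0, which the study's methods used, and other filters, scalings, covariates and subsets of libraries were alternatives. For the test over strains, refits without each strain and in female libraries were chosen after seeing the data. Covariate fits left out genes whose fitted values ran away. For the title tag, Gbp6 had a value in 15 alternatives and every other member in 16. The 43 libraries held 1626534 to 49372356 counts, and no pair was identical. Poisson intervals and floors (3 counts) cover counting error only.

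The members and gene lists were chosen with earlier results of these data known. All 10 members are named, as are those genes of the other guanylate-binding protein and immunity-related GTPase lists that passed the filter and at most 3 genes of each other list, by smallest p over strains. The 5 genes most like the members' mean were taken by Pearson's r. Of the list symbols, 7 matched no gene of the table. PWK/PhJ, which the series' design names, was not analysed here.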

Additional observations from a re-analysis of the deposited data

Results flagged for a closer look

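In each of 70 combinations of member and strain, the highest and lowest library were compared with the others by Dixon's ratio, and 7 combinations had a library apart. Chance passes this ratio in about 1 of 20 groups where values are normally distributed. That rate does not hold for skewed CPM with many zeros, such as those of Gbp6. In WSB/EiJ, Gbp4 was at 57.1 CPM in the female cortex library that is replicate 2, from 132 counts, with the next library at 14.1 CPM. Gbp9 reached 289.7 CPM in the female cortex library of C57BL/6J that is replicate 2, with the next at 167 CPM. The other 5 combinations were of Gbp6, which had no count in most libraries. Its highest libraries were at 2.60 CPM in 129S1/SvImJ, 1.34 in A/J, 18.1 in C57BL/6J, 8.62 in CAST/EiJ and 0.524 in WSB/EiJ, the last of which rests on 1 count. Replicate 2 of C57BL/6J stood apart for both Gbp9 and Gbp6.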

How the results depend on the processing

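No paired analysis was possible because the labels do not tie libraries to single mice. Over strains, 5 members were called with every 1 of the 43 libraries left out in turn, so the range of that count was 5 to 5, and 6 by DESeq2, which added Gbp7 (adjusted p = 0.0222). The count was 1 in cortex alone and 3 in hippocampus alone, where fewer libraries entered the fit, and 3 without CAST/EiJ. It was 0 in female mice alone with all strains and 0 with the 5 strains that had 2 or more female libraries. It was 4 among libraries titled high (Gbp3 lost, adjusted p = 0.262), 4 without 129S1/SvImJ (Gbp2 lost, 0.210) and 4 without DBA/2J (Gbp9 lost, 0.135). In these fits 624 of 25862, 731 of 27100 and 789 of 28571 genes were called. For wild-derived against long-inbred strains, 1 member became 0 in cortex alone, 0 in female mice and 0 with counts summed per strain. Those fits called few genes at all, 40 of 24136, 44 of 21307 and 7 of 22110. Without WSB/EiJ the member count became 2, which added Iigp1, among 282 of 28779 genes called. For the title tag, 0 became 1 with edgeR's default deviances (Irgm1, adjusted p = 0.0196). For sex, 1 became 2 with those deviances (Gbp4, adjusted p = 0.0393), and 0 with the rRNA-like share as covariate and in cortex alone. The last 2 fits called 56 of 26057 and 240 of 24136 genes. The cause of these changes was not tested. Cortex against hippocampus gave 0 members in all 17 alternatives.

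Of 1399 values of single members recomputed, 1369 kept their call and direction, and none reversed. The number of all genes called moved more than that of members. It went from 781 to 13526 over strains, from 218 to 6712 by origin, from 22 to 8023 by region, from 293 to 8327 by tag and from 830 to 10473 by sex with default deviances, and to 1335, 395, 61, 635 and 1031 with DESeq2. With the other factors as covariates it was 49 by region, 563 by tag and 521 by sex. It was 56 by sex with the rRNA-like share as covariate, and over strains it was 186 in cortex, 184 in hippocampus, 474 in male and 193 in female libraries alone (293 with 5 strains), and 332 without CAST/EiJ. Over all alternatives it ran from 7 to 6712 by origin, from 7 to 8023 by region and from 5 to 8327 by tag. DESeq2's size factors in edgeR moved the median of all genes by sex from -0.12 to -0.24, and Gbp3 remained called. Depth limits Gbp6 and the zeros of Iigp1: 3 counts were worth 0.0537 to 1.84 CPM.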

Other observations

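Genes of 3 further lists were compared over strains in the same fit, which called 2.68% of all genes. Of 7 other interferon-inducible GTPases, 5 passed the filter and 1 was called. Gvin1, a very large interferon-inducible GTPase, averaged 9.55 ± 10.2 CPM in C57BL/6J (SD, n = 6) and at most 0.394 in any other strain (edgeR adjusted p = 8.92e-04), and it had no count in WSB/EiJ. Mx2, an antiviral dynamin-like GTPase, averaged 34.1 ± 7.94 CPM in CAST/EiJ (n = 6) and 27.1 ± 43.3 in WSB/EiJ (n = 6), against 3.85 to 12.95 in the long-inbred strains (adjusted p = 0.124). GENCODE M21 does not class Mx2 as protein-coding on this assembly but as a polymorphic pseudogene. Gm4070 averaged 1.42 CPM in CAST/EiJ and 0.570 in WSB/EiJ against 4.20 to 12.9 in the others (adjusted p = 0.242). Of the read-length windows of Gvin1 and Gm4070, 97% and 94.6% occur in another gene, mostly in each other. The counts of both genes by strain are therefore uncertain.

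Of 15 genes that help to place the GTPases on vacuoles (the ATG8 conjugation system, its LC3 and GABARAP substrates and ubiquitin factors), 0 were called by edgeR and 2 had an unadjusted p below 0.05, Gabarapl1 with the smallest (adjusted p = 0.0710). Of 9 inflammasome genes 0 were called and 2 had an unadjusted p below 0.05, Casp4 (adjusted p = 0.0832), which had no count in 26 of 43 libraries, and Pycard (0.307), which had none in 30.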
